A study of Rattus norvegicus with 320 samples.

Results

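miR-126a is a microRNA (miRNA) whose hairpin gives 2 mature arms, rno-miR-126a-3p and rno-miR-126a-5p (miR-126a-3p and miR-126a-5p below), and both arms were measured here. They were found by name, as every row of the count table called miR-126 or miR-126a with any arm suffix, which gave 2 of 616 miRNAs. The study sequenced small RNA from 320 samples of Fischer 344 rats. Each of the 80 groups was 1 organ of 1 sex at 1 age and held 4 rats. The ages were 2, 6, 21 and 104 weeks, called juvenile, adolescent, adult and aged in the study. Adrenal gland, brain, heart, kidney, liver, lung, skeletal muscle, spleen and thymus came from both sexes, testis from males and uterus from females. The rats came from a breeding colony, and the labels name no treatment. The organs of 1 rat share an animal, whereas rats of different ages are different animals. The study left out 1 brain sample of a 6-week male and 1 spleen sample of a 104-week female, and all other samples were used here.

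miR-126 is known as an endothelial miRNA. Its hairpin lies within an intron of Egfl7, a gene that endothelial cells express, and its 3p arm is known to restrain Spred1 and Pik3r2, inhibitors of signalling by vascular endothelial growth factor. The 5p arm is also loaded into Argonaute and is known to act on Dlk1 in endothelial cells. Bulk RNA of an organ mixes all its cells, so fewer cells of a type and less RNA per cell cannot be told apart in any value below.

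The mature sequences are shown because the arms pair with different targets through their seeds, bases 2 to 8 counted from the 5′ end, which are in capitals. Both sequences were read from the count table and were identical in RefSeq.
miR-126a-3p: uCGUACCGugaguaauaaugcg
miR-126a-5p: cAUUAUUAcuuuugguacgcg
No other of the 616 rows had the seed of either arm. In the GRCr8 assembly the 5p arm lay at chr3:29813182-29813202 and the 3p arm at chr3:29813219-29813240, both on the plus strand. The hairpin, which RefSeq lists under the symbol Mir126b, spans chr3:29813174-29813246 inside Egfl7 (chr3:29802481-29814966). The exons of Egfl7 were not used here.

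Levels are given as CPM, the count of an arm per 1000000 counts of all miRNAs in its library. A read covers a whole mature miRNA, so no division by length was made. Library totals ran from 315550 to 10571766 counts with a median of 2848155.5, and no kept library held fewer than 755 counts of the 3p arm or 1954 counts of the 5p arm. Counting error was therefore small beside the spread between the libraries of a group. The organ labels were checked with miRNAs known from 1 organ. miR-124-3p had its highest mean in brain, miR-122-5p in liver, miR-208a-3p in heart, miR-206-3p in skeletal muscle and miR-741-3p in testis. The highest lung sample of week 21 had 2885 CPM of miR-122-5p, where the median of that group was 3.5 CPM and the liver mean was 29704 CPM. Its cause was not tested.

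Lung had the highest level of miR-126a-3p. Its mean over all ages was 18254 CPM ± 5157 (SD, n = 32), or 1.83% of all miRNA counts, and the arm had a median rank of 12 among the miRNAs of a lung library. Heart came next with 9632 CPM ± 1843 (SD, n = 32). The lowest organ was testis with 1102 CPM ± 269 (SD, n = 16), where the median rank was 62.5. Between them lay spleen at 6176 CPM, liver at 5195 CPM, adrenal gland at 3508 CPM, kidney at 3363 CPM, skeletal muscle at 2831 CPM, thymus at 2507 CPM, brain at 2495 CPM and uterus at 2110 CPM. In CPM the order thus ran from lung and heart down to the reproductive organs, and its lower part depended on the scaling.

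**Figure D1:**
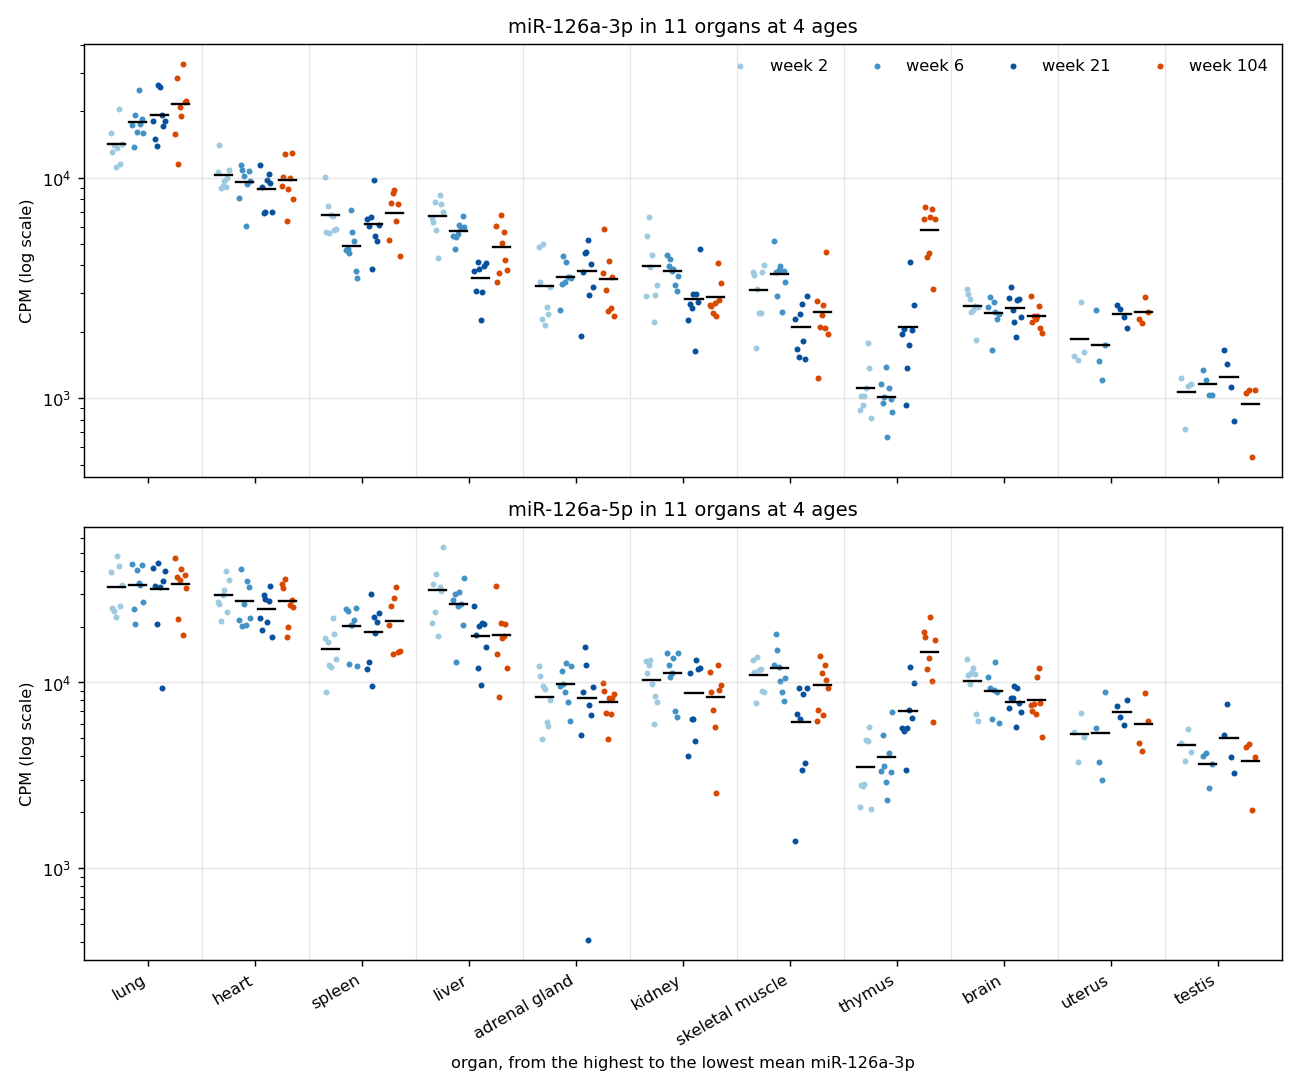
Level of each arm of miR-126a in CPM (log axis) in 11 organs, with 1 point per sample, coloured by age, and a black line at the mean of the age. Lung had the highest mean in both panels, though in the 5p panel it overlapped with heart and the highest single sample was a liver sample of week 2 (53795 CPM). Thymus rose with age, and 1 adrenal gland sample of week 21 lay at 409 CPM in the 5p panel.

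miR-126a-3p in lung ranged from 11153 to 20482 CPM with a median of 13899 at week 2, and from 11506 to 32933 CPM with a median of 21420 at week 104. At weeks 6 and 21 no sample of any other organ reached the lowest lung sample, which stood at 13781 and 13993 CPM. Above the lowest lung sample lay 1 heart sample at week 2 (14064 CPM) and 2 heart samples at week 104 (the higher at 12928 CPM), and no sample of another organ. Lung was compared with each of the other 10 organs at each age by edgeR's quasi-likelihood test, which adjusts for composition by TMM normalization (trimmed mean of M-values). A difference was called at an adjusted p (Benjamini-Hochberg, over all 616 miRNAs of the contrast) under 0.05. The 3p arm was higher in lung in 40 of 40 comparisons, where 29.3% of all tests of miRNAs were called higher in lung. The smallest log2 difference was 0.57 ± 0.13 (SE) against heart at week 2 (edgeR adjusted p = 0.000139), and the largest was 4.62 ± 0.19 (SE) against testis at week 6. The count was 40 also with library totals only and under DESeq2, and lung had the highest mean in 8 of 8 sequencing lanes.

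miR-126a-5p was more abundant than the 3p arm. Its mean was 32996 CPM ± 9479 (SD, n = 32) in lung, 27277 CPM ± 6449 (SD, n = 32) in heart, 23464 CPM ± 9729 (SD, n = 32) in liver and 18835 CPM ± 6241 (SD, n = 31) in spleen. Kidney, skeletal muscle, brain and adrenal gland had means between 8584 and 9668 CPM, thymus stood at 7280 CPM, uterus at 5892 CPM and testis at 4262 CPM. In lung libraries its median rank was 7.5 and in liver libraries 11.5. The 5p arm had more counts than the 3p arm in 314 samples. The 4 exceptions were 1 adrenal gland sample, 2 lung samples and 1 skeletal muscle sample. Lung was higher than the other organ in 33 of 40 comparisons and was called lower in none, and the 5p level of lung and heart did not pass the test at any of the 4 ages (log2 difference 0.02 to 0.25).

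Over all organ pairs and ages, the 3p arm was called different in 181 of 220 tests and the 5p arm in 162 of 220, where 62.0% of all tests of miRNAs were called. Organ accounted for 81.6% of the variance of log2 level of the 3p arm and for 68.4% of that of the 5p arm over all samples used. Within groups the SD of the log2 level was 0.36 for the 3p arm and 0.55 for the 5p arm.

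In the middle of the order, neighbours could often not be told apart, and their order depended on the scaling. Among neighbours in the order of 3p means, the same direction was called at all 4 ages for lung over heart, heart over spleen and uterus over testis, also when libraries were scaled by their totals only. Over these neighbouring pairs 61.8% of all tests of miRNAs were called. Brain stood above uterus in CPM, but with TMM normalization uterus was called higher at 4 of 4 ages, whereas with library totals alone brain was called higher at 2 of 4 ages. Spleen and liver likewise changed order, with liver called higher at 2 ages by TMM and spleen at 2 ages by library totals. For the 5p arm, adrenal gland and skeletal muscle were each called above brain at 4 ages by TMM (skeletal muscle by 1.16 to 1.75 on the log2 scale) and at none by library totals. The 5p arm of uterus was likewise called above that of testis at 4 ages by TMM and at 0 by library totals. Conversely, spleen was called above kidney at 0 ages by TMM and at 4 by library totals. Lung kept the first place for both arms when levels were computed without the 10 most abundant miRNAs and as TMM-scaled CPM.

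Of the 11 organs, thymus showed the largest change with age in both scalings of the libraries. miR-126a-3p ran from 817 to 1783 CPM (median 1018, n = 8) at week 2, from 666 to 1381 CPM (median 1002, n = 8) at week 6, from 933 to 4149 CPM (median 1995, n = 8) at week 21 and from 3132 to 7340 CPM (median 6490, n = 8) at week 104. The samples of week 104 thus lay above all samples of weeks 2 and 6, while 1 of 8 samples of week 21 reached into their range. The log2 fold change from week 2 to week 104 was 2.10 ± 0.17 (SE, edgeR adjusted p = 8.0e-13), with steps of 1.06 from week 6 to 21 and 1.16 from week 21 to 104. Both steps were called, and so was the whole change with library totals only, at 2.39.

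The 5p arm moved with it. Its level in thymus was 2091 to 5789 CPM (median 2826, n = 8) at week 2 and 6110 to 22389 CPM (median 15181, n = 8) at week 104, without overlap. The log2 fold change was 1.83 ± 0.22 (SE, edgeR adjusted p = 6.3e-09). Both arms kept these calls in all 10 alternatives run.

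Markers of other cell types moved in the same thymus samples. All 4 miRNAs of a red cell list (miR-451-5p, miR-144-3p, miR-144-5p and miR-486) rose, and their summed level went from 809 to 1891 CPM (median 1099) at week 2 to 6285 to 93919 CPM (median 15147) at week 104, mostly as miR-486. The sample with the highest red cell sum, at 93919 CPM, had the lowest levels of both arms at week 104, 3132 CPM for 3p and 6110 CPM for 5p. Of 5 leukocyte miRNAs 3 fell (miR-142-3p, miR-142-5p and, with TMM only, miR-155-5p) and 2 rose (miR-150-5p and miR-223-3p). The median of their sum was 44500 CPM at week 2 and 25042 CPM at week 104, mostly miR-142-5p. Of 4 smooth muscle miRNAs 3 rose, with a median sum of 103692 CPM at week 2 and 130145 CPM at week 104, with miR-143-3p the most abundant. That miRNA had a log2 fold change of 0.01 and did not pass the test. No member of these 3 lists was at 0 in a thymus sample of either age. In thymus 25.0% of all miRNAs were called higher and 33.0% lower. The part of these cell types in the change of miR-126a was not tested.

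**Figure D2:**
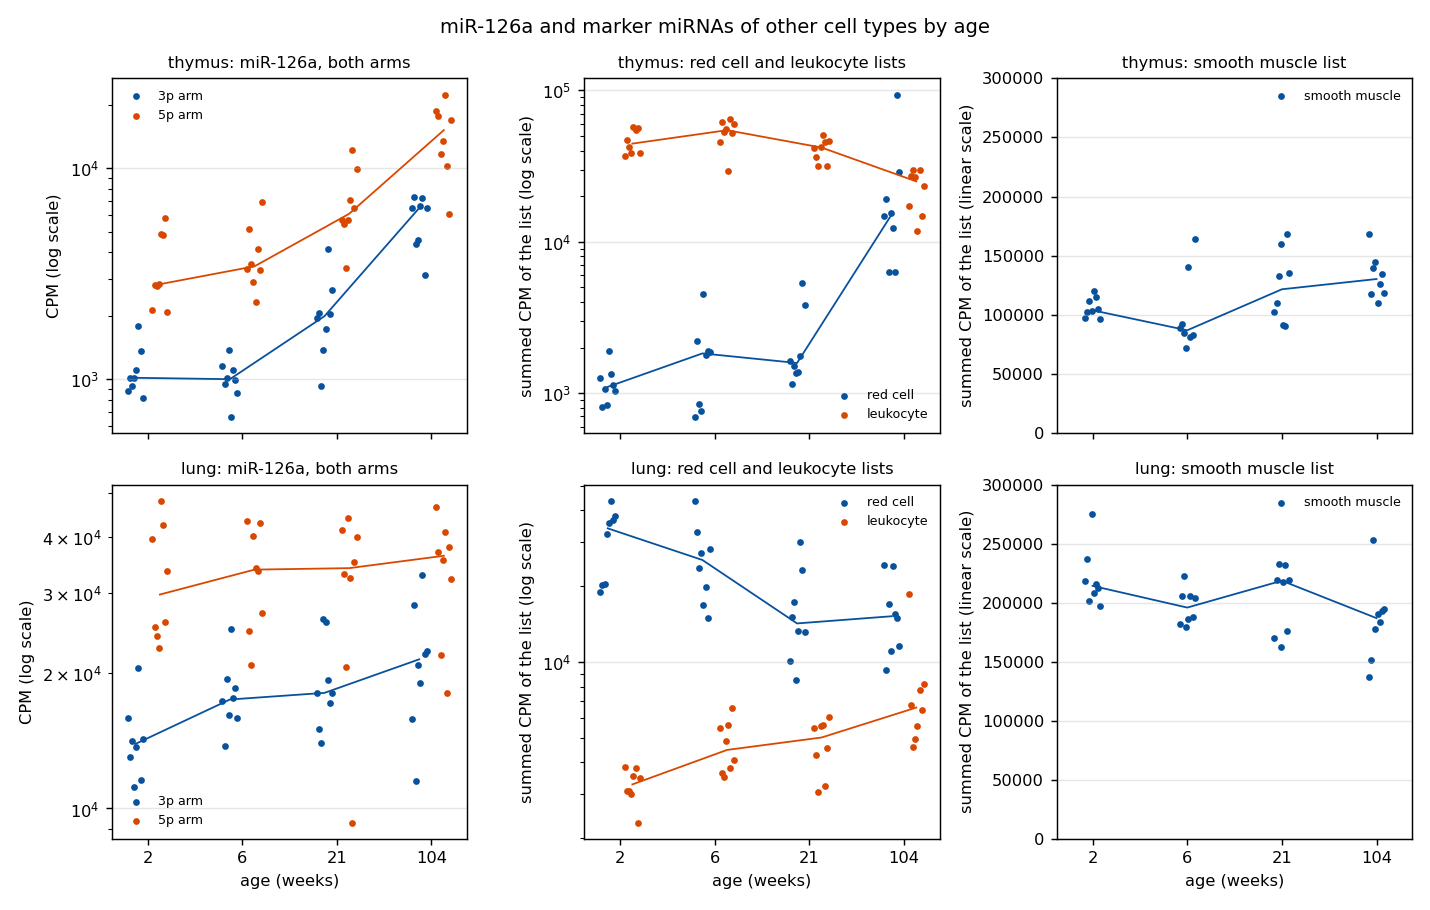
Levels of both arms and summed levels of marker lists in CPM by age in thymus (top) and lung (bottom), with 1 point per sample and a line through the medians. In thymus both arms and the red cell list rose while the leukocyte list fell, and in lung the 3p arm rose while the red cell list fell.

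In lung the 3p arm rose with age and the change of the 5p arm did not pass the test. The medians of the 3p arm were 13899, 17443, 18046 and 21420 CPM at weeks 2, 6, 21 and 104, each over 8 samples. The ranges of weeks 2 and 104 overlapped, with 3 of 8 samples of week 104 inside the range of week 2 and the lowest of them at 11506 CPM. From week 2 to week 104 the log2 fold change of the 3p arm was 0.80 ± 0.13 (SE, edgeR adjusted p = 2.7e-06), and 0.59 with library totals only (adjusted p = 0.0037). It kept its call in all 10 alternatives. The 5p arm gave 0.31 ± 0.22 (SE, edgeR adjusted p = 0.25). Its medians were 29818 CPM at week 2 and 36338 CPM at week 104.

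Red cell markers went the other way in lung, with a median sum of 33964 CPM at week 2 and 15210 CPM at week 104, and 3 of 4 fell (4 of 4 with library totals only). Of the leukocyte list 4 of 5 rose, all but miR-150-5p, and the median sum went from 3270 to 6600 CPM. Of the smooth muscle list 1 of 4 fell, miR-143-5p, joined by miR-145-5p with library totals only. The median sum was 214168 CPM at week 2 and 186836 CPM at week 104. In lung 23.5% of all miRNAs were called higher and 26.0% lower. Whether these cell types had a part in the change was not tested.

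In the other organs, the calls of a change with age mostly rested on the scaling, and in brain, heart, skeletal muscle and testis the direction did too. From week 2 to week 104 the 3p arm was called higher in 8 of 11 organs and the 5p arm in 6, and lower in 0 and 1, where 49.9% of all tests of miRNAs were called, 21.8% higher and 28.1% lower. With library totals only, the 3p arm was called higher in 2 organs and lower in 2, and the 5p arm higher in 1 and lower in 1, where 51.0% of all tests of miRNAs were called, 12.3% higher and 38.7% lower. TMM normalization moved the median log2 fold change of all miRNAs by −0.19 in thymus to 1.5 in testis relative to library totals, and by more than 0.1 in every organ. Calls present with the same sign in both scalings were those of thymus (both arms), lung (3p) and liver (5p).

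**Figure D3:**
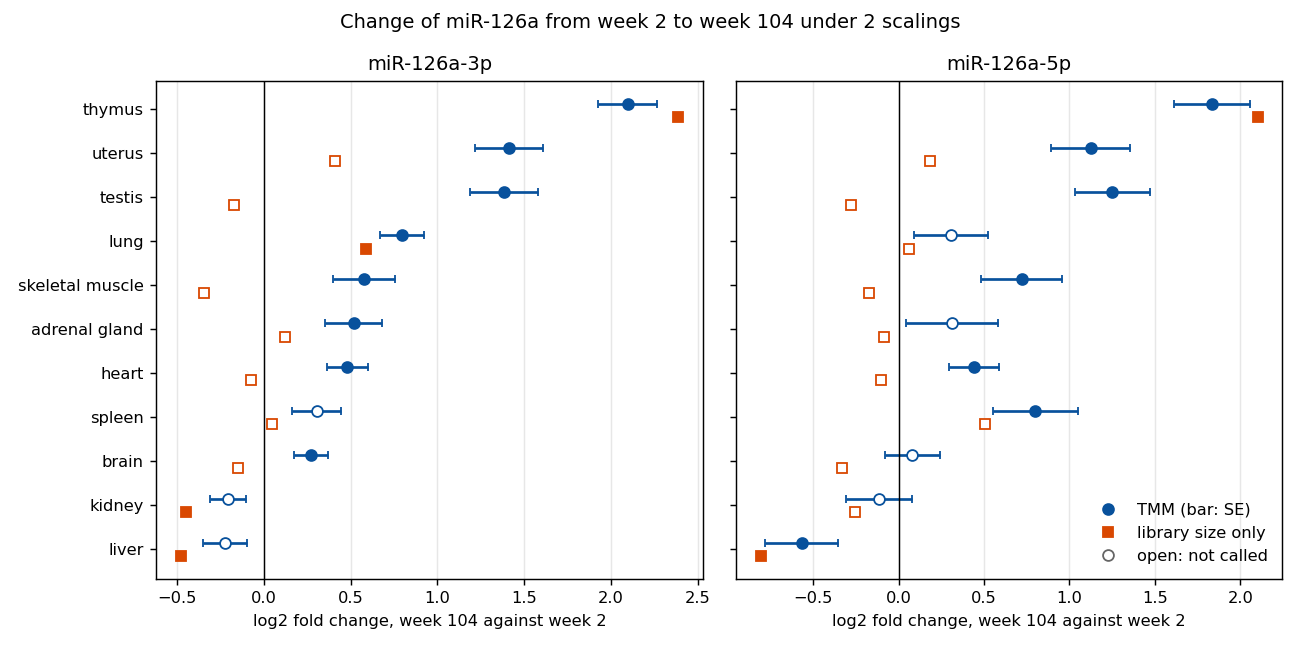
Log2 fold change of each arm from week 2 to week 104 in 11 organs, with TMM normalization (circles, bar: SE) and with library totals only (squares), filled where the adjusted p was under 0.05. In testis the circles lie above 1 and the squares below 0.

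The gap between the scalings was widest in testis and uterus, where it turned the direction in testis and ended the calls in uterus. In testis the 3p arm stood at 1232, 724, 1133 and 1157 CPM in the 4 rats of week 2 and at 1050, 1090, 540 and 1085 CPM in the 4 rats of week 104, so the CPM ranges overlapped. The log2 fold change was 1.38 ± 0.19 (SE, edgeR adjusted p = 1.0e-05) with TMM and −0.17 with library totals only. The 5p arm gave 1.25 with TMM and −0.28 with library totals. In uterus the 3p arm stood at 1554, 1484, 2726 and 1622 CPM at week 2 and at 2297, 2190, 2882 and 2460 CPM at week 104, with 1 juvenile sample among the aged ones. Its log2 fold change was 1.41 ± 0.20 (SE, edgeR adjusted p = 4.3e-06) with TMM and 0.41 with library totals, where it was not called.

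Markers of other cell types moved in the same testis and uterus samples. In testis 3 of 4 smooth muscle miRNAs were called lower with TMM and 4 of 4 with library totals, and their median sum went from 120119 CPM at week 2 to 40085 CPM at week 104, mostly miR-143-3p. The red cell list had 3 of 4 members higher with TMM, but none higher and miR-486 lower with library totals, with median sums of 3679 and 1057 CPM, mostly miR-486. Of the leukocyte list 5 of 5 were higher with TMM and 2 of 5 with library totals, while the median sum was 1359 CPM at week 2 and 1060 CPM at week 104, mostly miR-142-5p. Of all miRNAs in testis 18.5% were called higher and 36.7% lower with TMM, and 4.55% and 70.3% with library totals. In uterus 4 of 4 smooth muscle miRNAs were higher with TMM and 3 of 4 with library totals, and the median sum went from 259312 to 445718 CPM, mostly miR-143-3p. The red cell list had no member called with TMM and 2 of 4 lower with library totals, with median sums of 842 and 416 CPM, mostly miR-486. Of the leukocyte list 4 of 5 were higher with TMM and 3 of 5 with library totals, and the median sum went from 789 to 1146 CPM, with miR-150-5p the most abundant at week 2 and miR-142-5p at week 104. Of all miRNAs in uterus 17.4% were called higher and 27.3% lower with TMM, and 6.01% and 48.5% with library totals. The part of these cell types in the values of both arms was not tested.

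With TMM, liver was the only organ in which a fall from week 2 to week 104 was called. The 5p arm there ran from 17848 to 53795 CPM (median 31910, n = 8) at week 2 and from 8329 to 33115 CPM (median 17533, n = 8) at week 104. The log2 fold change was −0.57 ± 0.21 (SE, edgeR adjusted p = 0.030), but the call was lost with sequencing lane as a covariate and without replicate 2 or replicate 4. The 3p arm of liver, with medians of 6777 and 4640 CPM, gave −0.22 ± 0.13 (SE, edgeR adjusted p = 0.17) with TMM and was called lower with library totals and by DESeq2. In the same liver samples 4 of 5 leukocyte miRNAs were called higher with both scalings, all but miR-150-5p, and their median sum went from 2225 CPM at week 2 to 4251 CPM at week 104, mostly miR-142-5p. The red cell list had 4 of 4 members higher with TMM and 2 of 4 with library totals, with median sums of 6835 and 8892 CPM, mostly miR-486. Of the smooth muscle list 1 of 4, miR-145-3p, was higher with TMM, whereas miR-143-3p was lower with library totals, and the median sum went from 58740 to 38058 CPM, mostly miR-143-3p. Of all miRNAs in liver 15.7% were called higher and 28.9% lower with TMM, and 9.58% and 31.5% with library totals. The part of these cell types in the fall was not tested.

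With TMM, rises were also called in heart (0.48 for 3p and 0.44 for 5p), skeletal muscle (0.58 and 0.72), adrenal gland (0.52 for 3p), brain (0.27 for 3p) and spleen (0.80 for 5p). By the methods of the study, the RNA of the juvenile spleens was of low integrity, unlike that of most other samples, and its part in the spleen values was not tested. With library totals the signs turned for both arms in heart and skeletal muscle and for 3p in brain, and the rises in adrenal gland and spleen were no longer called. Of these 7 calls, 1 (the 3p arm in heart) was lost under no other alternative. From week 2 to week 104 the median leukocyte sum rose in each organ with such a call. In heart it went from 1828 to 4280 CPM and in adrenal gland from 709 to 1635 CPM. With TMM, 5 of 5 leukocyte members were called higher in heart, 4 in adrenal gland and in skeletal muscle. In brain 3 were called higher and 1 lower, and in spleen 2 higher. With library totals only, 4 were higher in heart and in adrenal gland. Brain, skeletal muscle and spleen each had 2 higher and 1 lower in that scaling. The median red cell sum rose in heart (51655 to 79645 CPM) and fell in the others, as in spleen (186463 to 110763 CPM). With TMM, 4 of 4 red cell members were called higher in heart, 3 in adrenal gland and 1 in skeletal muscle. In spleen 1 was called lower. With library totals only, 3 were higher in heart and 1 in adrenal gland. Lower in that scaling were 1 in skeletal muscle, 2 in brain and 3 in spleen. The median smooth muscle sum rose in brain (23891 to 35748 CPM) and spleen (86665 to 115643 CPM) and fell in the others. With TMM, no smooth muscle member was called lower in these organs. Called higher were 3 of 4 in brain and in skeletal muscle, 2 in spleen, 1 in heart and 1 in adrenal gland. With library totals only, 3 were higher in brain and 2 in spleen. Lower in that scaling were 2 in heart, 1 in skeletal muscle and 1 in adrenal gland. Of all 616 miRNAs, TMM called 176 higher and 161 lower in heart, and 131 and 146 in adrenal gland. It called 173 and 195 in skeletal muscle, 177 and 160 in brain, and 95 and 149 in spleen. With library totals only, the counts were 80 and 251 in heart, and 60 and 209 in adrenal gland. They were 70 and 271 in skeletal muscle, 91 and 248 in brain, and 59 and 190 in spleen. The part of these cell types was not tested. Kidney did not pass the test for either arm (−0.21 ± 0.10 and −0.11 ± 0.19, SE) with TMM, while with library totals only its 3p arm was called lower (−0.45, edgeR adjusted p = 0.029). Over all 4 contrasts of ages, 15 of 44 tests of the 3p arm and 13 of 44 of the 5p arm were called, where 29.6% of all tests of miRNAs were called. Between neighbouring ages the 3p arm was called in 3, 2 and 2 of 11 organs for weeks 2 to 6, 6 to 21 and 21 to 104, where 36.0%, 16.3% and 16.0% of all tests of miRNAs were called. The 5p arm was called in 2, 1 and 3. From week 6 to week 21 both arms were called higher in thymus, in both scalings. The 3p arm was also called higher in adrenal gland (0.49), a call lost with library totals only (adjusted p = 0.82) and with lane as a covariate. With library totals only, falls from week 6 to week 21 were called for the 3p arm in liver (−0.70) and skeletal muscle (−0.80). The 5p arm fell in skeletal muscle (−0.93) in that scaling. It also gave a fall of the 3p arm in spleen from week 2 to week 6 (−0.46, edgeR adjusted p = 0.034), which was not called with TMM (−0.055).

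Whether the change from week 2 to week 104 differed between organs was tested in 1 fit of all samples, as the change of 1 organ minus the mean change of the other 10. The 3p arm differed in 7 of 11 organs and the 5p arm in 4 of 11, where 30.5% of all tests of miRNAs were called. The excess of thymus was 1.35 ± 0.15 (SE, log2, edgeR adjusted p = 1.4e-16) for 3p and 1.17 ± 0.25 (SE, edgeR adjusted p = 2.2e-05) for 5p with TMM, and 2.44 and 2.23 with library totals only. Liver fell behind the other organs by −0.84 for 3p and −1.10 for 5p, and kidney by −0.94 for 3p. These 5 differences were called in all 8 alternatives. Testis was called at 0.93 for 3p and 0.90 for 5p, and both turned negative with library totals only (−0.38 and −0.39). The change of the 3p arm in lung did not pass the test against the other organs (0.06 ± 0.14, SE), whereas it passed with library totals only (0.46, edgeR adjusted p = 0.0499). The 3p arm of skeletal muscle likewise passed with library totals only (−0.57, edgeR adjusted p = 0.0094) and not with TMM (0.08), and that of heart passed with sequencing lane as a covariate (−0.37, edgeR adjusted p = 0.018) and not without it (−0.36, edgeR adjusted p = 0.067).

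Averaged over ages, no difference between the sexes was called in any of 9 organs for either arm by edgeR, where 1.39% of all tests of miRNAs were called, and DESeq2 called none. At an unadjusted p under 0.05 edgeR gave 1 organ for the 3p arm and 1 for the 5p arm. These were lung, where the 3p mean was 19601 CPM ± 5267 (SD, n = 16) in males and 16907 CPM ± 4832 (SD, n = 16) in females, and thymus, where the 5p mean was 7851 CPM ± 5466 (SD, n = 16) in males and 6709 CPM ± 5505 (SD, n = 16) in females. The change with age did not differ between the sexes in any of the 9 organs after adjustment, where 1.24% of all tests were called.

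The ratio of the arms within a library does not depend on its scaling. It is given as the log2 of the 5p count over the 3p count, with 0.5 added to each. Liver had the highest mean, 2.12 ± 0.46 (SD, n = 32), followed by testis at 1.94 ± 0.28 (SD, n = 16), brain at 1.79 ± 0.32 (SD, n = 31), skeletal muscle at 1.72, thymus at 1.64, spleen at 1.58, heart at 1.49, kidney at 1.48, uterus at 1.46 and adrenal gland at 1.19. Lung had the lowest, 0.83 ± 0.59 (SD, n = 32). None of the 10 pairs of neighbours in this order passed the permutation test described below (adjusted p 0.10 to 0.95).

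**Figure D4:**
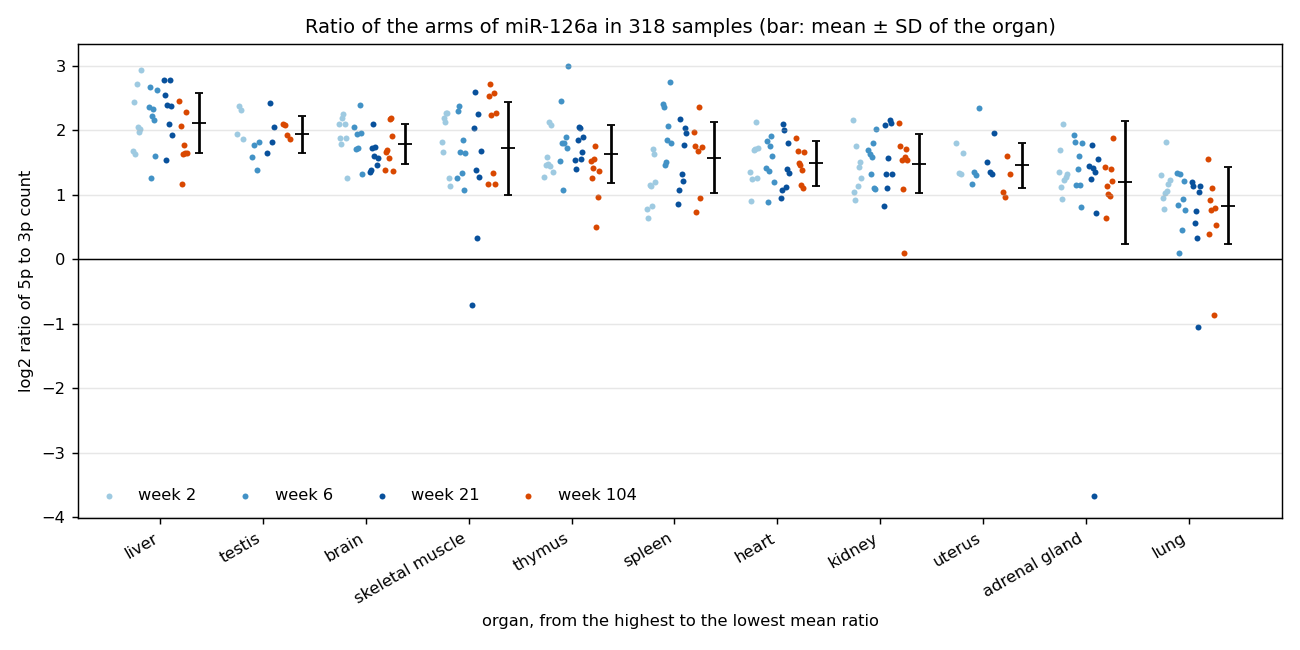
Log2 ratio of the 5p to the 3p count in each sample, by organ and coloured by age, with the mean ± SD of the organ as a black bar. Liver was highest and lung lowest, and 1 adrenal gland sample lay at −3.67, below all others.

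Pairs of organs were compared by a permutation test (100000 resamples, two-sided, labels shuffled within age), and 30 of 55 pairs differed after adjustment over the 55. The ratio of lung was below that of 9 of 10 organs, by 0.63 against uterus to 1.29 against liver. These 9 differences kept their side of the threshold in all alternatives. The difference of 0.36 between adrenal gland and lung had an adjusted p of 0.10 and passed the threshold once the adrenal gland sample at −3.67 was left out. Liver was above 9 of 10 organs, all but testis (0.18, adjusted p = 0.20), but its difference from brain was lost without replicate 4 and that from skeletal muscle with the replicate block and without replicate 1 or 4. Among 9 shared organs, liver was highest in 8 of 8 sequencing lanes and lung lowest in 7 of 8.

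The ratio did not pass the adjusted threshold in any of 44 comparisons of ages or 9 of sexes, and 4 comparisons of ages had an unadjusted p under 0.05. In testis and uterus, with 4 samples per age, the exact permutation test allows no p below 0.029. Comparisons in these organs could therefore hardly pass after adjustment. The lowest p was that of spleen, whose juvenile samples were those of low RNA integrity. Its ratio ran from 0.65 to 1.72 (median 1.15, n = 8) at week 2 and from 1.46 to 2.74 (median 1.96, n = 8) at week 6, a difference of 0.88 with an adjusted p of 0.062 in the exact permutation test. With the mean effect of sequencing lane removed, an alternative chosen after seeing the data, 4 comparisons passed. These were spleen from week 2 to 6 (0.81, adjusted p = 0.0137, exact permutation test), lung from week 2 to 6 (−0.39, adjusted p = 0.0308) and from week 2 to 104 (−0.60, adjusted p = 0.0308), and thymus from week 21 to 104 (−0.51, adjusted p = 0.0205).

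Sequencing lane moved with the level of both arms within groups. The mean deviation of the 3p arm from its group mean ran from −0.27 in lane 7 to 0.34 in lane 3 on the log2 scale, and that of the 5p arm from −0.41 in lane 7 to 0.18 in lane 3. The ratio of the arms ran from −0.23 in lane 5 to 0.23 in lane 8. Shuffling lanes within groups gave a p of 1e-05 for each of the 3 measures, the smallest that 100000 permutations can give. Each of the 9 organs present in both sexes was spread over all 8 lanes.

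**Figure D5:**
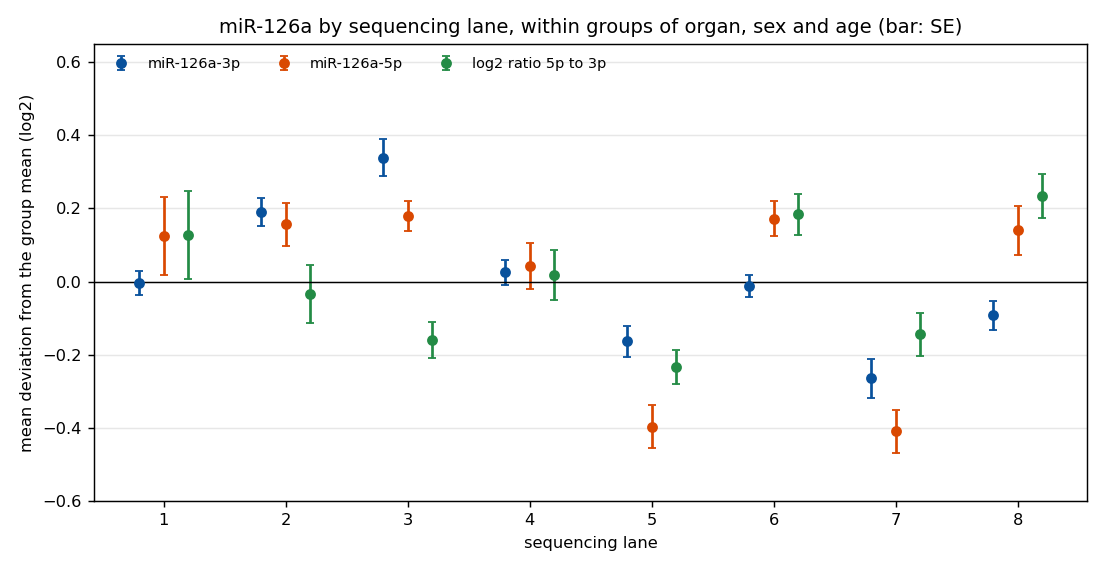
Mean deviation of the log2 level of each arm and of their log2 ratio from the mean of the sample's group, by sequencing lane, with bars for the standard error over 38 to 40 samples. Lane 3 lies highest for the 3p arm and lanes 5 and 7 lie lowest for the 5p arm.

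One library stood apart. In replicate 1 of the male adrenal gland at week 21 the 5p arm had 1954 counts and the 3p arm 24947 counts. Its 5p level was 409 CPM beside 7533, 6693 and 9440 CPM in the 3 other replicates, while its 3p level was 5227 CPM beside 2943, 4061 and 3201 CPM. Among miRNAs with a mean of at least 300 counts, 18 begin with CA, the 5p arm included, and 17 of them were below all 3 other replicates in that library. The median log2 difference was −3.01 over the 18 and −0.48 over 166 miRNAs with other first bases. miR-322-5p and miR-186-5p were among the 17. Without this library no count of called organ, age or sex comparisons of miR-126a moved by more than 1.5 times.

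The first bases were looked at after these values had been seen. Within groups of organ, sex and age, the deviations of the 5p arm were set beside those of other miRNAs. Those beginning with CA among the most alike are shown, with the first 2 bases in capitals and the 3p arm last for contrast.
miR-126a-5p: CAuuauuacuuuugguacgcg
miR-191a-5p: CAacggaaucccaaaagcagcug
miR-186-5p: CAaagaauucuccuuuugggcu
miR-497-5p: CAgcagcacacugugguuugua
miR-130a-3p: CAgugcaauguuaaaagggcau
miR-21-3p: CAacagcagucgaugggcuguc
miR-322-5p: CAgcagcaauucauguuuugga
miR-126a-3p: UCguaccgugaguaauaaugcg
Of the 10 miRNAs whose deviations correlated best with the 5p arm over all samples, 6 began with CA, led by miR-191a-5p at r = 0.82, while 17 of the 183 miRNAs compared did. Over all 17 the r ran from −0.10 to 0.82 with a median of 0.62, beside 0.23 for all 183, and the median was 0.50 without the adrenal gland library. The count was 6 of 10 also without that library, and 0 of 10 for the 3p arm. These samples share lanes and library totals, and the correlations are given as a description.

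By Pearson correlation, the miRNAs most like miR-126a-3p across organs and ages came from the miR-23, miR-27 and miR-24 clusters, which are known to be expressed in endothelium and other cells. Likeness was Pearson's r of log2(CPM + 1) means over 44 groups of organ and age, among 390 miRNAs with at least 10 CPM on average. The 5p arm itself had r = 0.94. Next came miR-23a-3p (r = 0.81), miR-24-2-5p (0.80), miR-27a-3p (0.80), miR-24-3p (0.79) and miR-23b-3p (0.73). The group means share libraries and rats, and by Spearman correlation 1 of these 5 was among the best 5, whereas over single samples 4 were. By Spearman correlation the best were the red cell miRNAs miR-451-5p (rho = 0.83), miR-144-5p (0.82) and miR-144-3p (0.78), followed by miR-23a-3p (0.76) and miR-26b-5p (0.72). Lung was the highest organ of miR-27a-3p (3954 CPM ± 994, SD, n = 32) and of miR-23a-3p (2181 CPM ± 453, SD, n = 32). The mean of miR-23a-3p in heart was close to it at 2126 CPM ± 375 (SD, n = 32). miR-23b-3p was highest in heart (2500 CPM ± 268, SD, n = 32), and its mean in liver (2155 CPM) was also above that in lung (2115 CPM). These miRNAs were chosen for their likeness across organs, so a shared highest organ is partly built into the choice. From week 2 to week 104, miR-23a-3p and miR-27a-3p were called higher in 11 of 11 organs with TMM, where 21.8% of all tests of miRNAs were called higher, and in 8 and 7 with library totals only, where 12.3% were. miR-23b-3p was called higher in 5 and lower in 0 with TMM, but higher in 2 and lower in 5 with library totals only, where 38.7% of all tests were called lower.

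A list of 20 miRNAs known from vessels was set beside miR-126a. By mean CPM its members were highest in different organs. miR-23a-3p, miR-27a-3p, miR-24-3p, miR-130a-3p and miR-322-5p were highest in lung. miR-221-3p, miR-222-3p, miR-132-3p, miR-218a-5p and miR-139-5p were highest in brain. miR-92a-3p and miR-17-5p were highest in thymus, and miR-18a-5p, miR-19b-3p and miR-20a-5p in spleen. The others were highest in heart, kidney or adrenal gland. In lung, 8 of the 20 rose and 3 fell from week 2 to week 104, with a median log2 fold change of −0.0025 beside −0.0027 for all miRNAs, of which 23.5% were called higher and 26.0% lower. With library totals only 7 rose and 8 fell, beside 16.6% and 31.2% of all miRNAs, and both medians were −0.23. miR-218a-5p, which is processed from the Slit genes, fell in lung by 1.56 ± 0.090 (SE, log2, edgeR adjusted p = 1.3e-15), from 671 CPM ± 104 (SD, n = 8) to 195 CPM ± 28.0 (SD, n = 8). miR-221-3p, known to target Kit, rose by 1.19 ± 0.11 (SE, log2), and miR-27a-3p by 1.07 ± 0.080 (SE, log2). In thymus 11 of the 20 rose and 7 fell, with a median of 0.63 beside −0.19 for all miRNAs, of which 25.0% were called higher and 33.0% lower. With library totals only 12 rose and 5 fell, beside 27.9% and 25.2% of all miRNAs. The list was chosen with earlier results of these data known, and no test was made of it as a whole.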

How the data were processed

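The deposited table held raw counts per mature miRNA (604 miRBase miRNAs and 12 candidates). The authors trimmed reads with fastp 0.23.2, aligned reads of 16 to 35 nt with Bowtie 1.3.1 and counted them. The 320 columns were matched to samples by name. Members and lists were chosen with earlier results of these data known. The named miRNAs were both arms, the 5 most alike, the marker lists and the 3 of the vascular list with the largest change in lung. Lanes came from the study's sample list.

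Counts were tested with edgeR 4.0.16 (R 4.3.3; TMM, quasi-likelihood, no low-count filter): organs within an age, ages and sexes within an organ (sex weighted equally), and the change with age between organs over all groups. Standard errors were derived from the fold change and F statistic. Organs of 1 rat were treated as independent. DESeq2 1.42.0, library totals, lane, a filter at a mean count of 10, all 320 samples, the replicate block and leaving out replicates were alternatives. The arm ratio was tested by permutation (exact between ages of 8 or fewer samples). The edgeR and permutation steps were tested on simulated data. For edgeR the counts came from 1 pooled profile with as many rises as falls. Differences in composition between organs or ages were therefore not modelled. Between simulated liver and lung at week 21, 69 of 100 2-fold changes were recovered, with 6 false calls among 416 unchanged miRNAs.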

Additional observations from a re-analysis of the deposited data

Results flagged for a closer look

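The levels of both arms and their ratio were each tested for a sample apart from its group in the 44 groups of organ and age (Dixon's ratio of gap to range). Of these 132 tests 11 picked out a sample, and chance alone gives about 1 in 20. For the miR-126a-3p level, the highest sample stood apart in heart at week 2 (14064 CPM), kidney at week 21 (4761 CPM), skeletal muscle at week 104 (4590 CPM), spleen at week 2 (10114 CPM), spleen at week 21 (9760 CPM) and uterus at week 2 (2726 CPM). All of these but the heart sample were sequenced in lane 3, the lane with the highest mean deviation of the 3p arm, and the part of the lane in them was not tested. In testis at week 104 the lowest sample stood apart at 540 CPM. For the log2 ratio of 5p to 3p, the lowest sample stood apart in adrenal gland at week 21 (−3.67), in brain at week 2 (1.26) and in lung at week 21 (−1.05), and the highest in uterus at week 6 (2.35).

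The change from week 2 to week 104 differed between 1 organ and the mean of the other 10 by edgeR's test of that difference. For miR-126a-3p the log2 difference was 1.35 in thymus, 0.93 in testis, 0.51 in uterus, −0.36 in brain, −0.51 in spleen, −0.84 in liver and −0.94 in kidney. For miR-126a-5p it was 1.17 in thymus, 0.90 in testis, −0.71 in kidney and −1.10 in liver. The calls of uterus, brain, spleen and testis and that of the 5p arm in kidney were lost with library totals only. Those of the 3p arm in uterus and brain and of the 5p arm in kidney and testis were also lost without replicate 4, that of the 5p arm in testis without replicate 2, that of brain with lane as a covariate and that of uterus with all 320 samples. The spleen value rests on the juvenile samples of low RNA integrity, and its part was not tested.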

How the results depend on the processing

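Library totals only, in place of TMM, called 9 age comparisons of 44 for the 3p arm, 4 higher and 5 lower (15 with TMM, all higher), and 5 for the 5p arm, 3 higher and 2 lower (13 with TMM, 12 higher and 1 lower). Called in both were 4 for each arm. Asking for a 2-fold change left 5 and 3. Organs whose change with age differed numbered 2 of 11 for the 5p arm with library totals (4 with TMM). With lane effects removed, 4 of 44 arm ratio comparisons of ages were called in place of 0, and by Spearman correlation 1 of the 5 most alike miRNAs was shared. Signs of the week 104 change turned with library totals for the 3p arm in brain (−0.15), heart (−0.074), muscle (−0.34) and testis (−0.17), and for the 5p arm in adrenal gland (−0.084), brain (−0.33), heart (−0.10), muscle (−0.18) and testis (−0.28). For the 5p arm in brain a mean count of at least 10 gave −0.061. Differences from the other organs turned for the 3p arm in adrenal gland (−0.054, and −0.015 with all 320 samples), muscle (−0.57) and testis (−0.38), and for the 5p arm in muscle (−0.27) and testis (−0.39). Heart minus lung for the 5p arm turned to 0.054 at week 6 with the count filter, 0.027 and 0.15 at weeks 6 and 21 with lane, and 0.015 at week 104 by DESeq2. The cause was not tested. Leaving out each replicate gave 171 to 178 and 151 to 160 called organ pairs, 10 to 14 and 9 to 13 age comparisons, 5 to 8 and 2 to 5 organs that differed in their change, and 25 to 32 organ pairs of the arm ratio, for the 3p and 5p arms in this order. Signs also turned on leaving out a replicate for values that did not pass the test in all samples: differences of the 3p arm from the other organs in adrenal gland (−0.49 to 0.21) and muscle (−0.33 to 0.11), of the 5p arm in heart (−0.33 to 0.025), lung (−0.43 to 0.011) and spleen (−0.16 to 0.37), the week 104 change of the 5p arm in brain (−0.024 to 0.12) and kidney (−0.31 to 0.062), and heart minus lung for the 5p arm at weeks 6 (−0.31 to 0.044), 21 (−0.37 to 0.023) and 104 (−0.27 to 0.019). Across organs, samples with the same replicate number were hardly more alike than others (mean correlation of deviations 0.012 for the same number and −0.0036 for others). These values cannot show whether a replicate number names 1 rat. With the replicate block 183 and 162 organ pairs, 15 and 13 age comparisons and 7 and 4 organs were called. For the arm ratio the block gave 26 of 54 tested organ pairs, whereas 30 of 55 were called without it.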

Other observations

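The 2 samples left out by the study were both sequenced in lane 3. The brain sample had 5350 CPM of the 3p arm and 12663 CPM of the 5p arm, a log2 ratio of 1.24, and the spleen sample 7952 and 18284 CPM, a log2 ratio of 1.20.

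Pearson's r between the log2(CPM + 1) levels of the arms was 0.84 over all samples. Within organs it ran from 0.026 in adrenal gland (Spearman's rho 0.45, with the library that stood apart included) and 0.13 in lung (rho 0.20) to 0.91 in thymus (rho 0.85), and the lowest rho was 0.16 in spleen (r 0.22), as a description of samples that share rats, lanes and library totals.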
